A study of Mus musculus with 4 samples.

Results

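The 10 genes described here encode ligands of the tumour necrosis factor (TNF) superfamily that T-cells can make: Tnf, Lta, Ltb, Fasl, Tnfsf10, Tnfsf11, Tnfsf8, Tnfsf14, Tnfsf4 and Cd40lg. Every probe set that the array's annotation assigns to 1 of these symbols alone was taken, which gave 10 of the 18193 genes so named and 15 of the 45101 probe sets on the array, with 1 for Tnf, Lta, Ltb, Tnfsf8, Tnfsf4 and Cd40lg, 2 for Fasl, Tnfsf11 and Tnfsf14 and 3 for Tnfsf10. No member was lost to a filter on low values. The cells were CD4+CD25+ T-cells from lymph nodes of C57Bl/6 mice, 6 to 12 weeks old, taken 3 days after the mice had received the CD28 superagonist D665, an antibody that activates T-cells through CD28 and expands regulatory T-cells (Tregs). Before sorting, all cells spent a night in medium with IL-2 at 200 U/ml, anti-CD28 at 5 µg/ml and anti-CD3 at 2 µg/ml. They were then split with an IL-10 secretion assay into 2 IL-10+ samples (replicates 1 and 2) and 2 IL-10- samples (replicates 3 and 4), and each sample was read on 1 array. Cells were gated on CD25 and IL-10 and not on Foxp3, so that they need not all be Tregs. Whether the replicates are separate mice or separate sorts is stated neither in the labels nor in the methods. The p-values therefore cover the spread among these 4 samples alone, and that spread may be technical.

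TNF superfamily ligands are mostly made as membrane proteins that assemble into trimers, and enzymes at the cell surface can release some of them. They bind receptors of the TNF receptor superfamily. Receptors with a death domain, such as Fas and the receptors of TRAIL, can start apoptosis through adaptors and caspases, while the other receptors recruit TRAF proteins and switch on NF-kB. In T-cells, several of these ligand genes are induced after stimulation of the antigen receptor, and the lymphotoxins made by lymphocytes shape lymphoid tissue.

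The promoters are shown first for Lta, Ltb and Tnfsf10, the genes with the largest differences that were lower in IL-10+ cells, and for Fasl and Tnfsf11, which were higher. That of Tnf, which did not pass, is shown because the gene lies between Lta and Ltb. RefSeq (GRCm38.p6) gave promoters for 8 of the 10 genes, each with 250 bases before and 50 after the gene's start. Capitals mark matches, on either strand, to the core of NFAT sites (GGAAA), to AP-1 sites (TGANTCA), to the NF-kB consensus and to the TATA box (TATAAA). In the promoter of Ltb, the capitals are 1 NF-kB match whose first bases also match the NFAT core.
Lta (chr17:35205302-35205601, minus strand): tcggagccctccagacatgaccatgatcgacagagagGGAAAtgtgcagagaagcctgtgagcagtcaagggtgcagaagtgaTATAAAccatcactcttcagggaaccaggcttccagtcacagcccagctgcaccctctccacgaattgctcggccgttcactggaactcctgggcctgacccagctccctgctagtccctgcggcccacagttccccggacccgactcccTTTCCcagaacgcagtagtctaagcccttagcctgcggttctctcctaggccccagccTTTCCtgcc
Tnf (chr17:35201958-35202257, minus strand): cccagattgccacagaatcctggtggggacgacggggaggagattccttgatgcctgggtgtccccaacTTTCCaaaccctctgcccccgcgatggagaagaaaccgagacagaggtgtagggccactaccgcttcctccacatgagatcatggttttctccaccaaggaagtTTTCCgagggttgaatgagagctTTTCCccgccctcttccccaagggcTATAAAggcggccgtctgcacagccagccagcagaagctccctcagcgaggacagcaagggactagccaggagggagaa
Ltb (chr17:35194257-35194556, plus strand): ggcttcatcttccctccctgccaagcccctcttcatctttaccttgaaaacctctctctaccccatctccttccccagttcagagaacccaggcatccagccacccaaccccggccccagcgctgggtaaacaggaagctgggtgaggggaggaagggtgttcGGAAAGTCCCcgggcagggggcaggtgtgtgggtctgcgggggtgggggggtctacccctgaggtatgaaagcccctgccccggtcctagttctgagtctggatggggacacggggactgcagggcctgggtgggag
Tnfsf10 (chr3:27316827-27317126, plus strand): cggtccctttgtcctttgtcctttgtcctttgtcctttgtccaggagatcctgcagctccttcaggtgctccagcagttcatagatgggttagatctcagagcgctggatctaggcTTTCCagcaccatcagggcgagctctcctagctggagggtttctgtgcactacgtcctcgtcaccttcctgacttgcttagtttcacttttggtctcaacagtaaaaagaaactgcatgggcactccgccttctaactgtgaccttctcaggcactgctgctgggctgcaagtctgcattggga
Fasl (chr1:161788446-161788745, minus strand): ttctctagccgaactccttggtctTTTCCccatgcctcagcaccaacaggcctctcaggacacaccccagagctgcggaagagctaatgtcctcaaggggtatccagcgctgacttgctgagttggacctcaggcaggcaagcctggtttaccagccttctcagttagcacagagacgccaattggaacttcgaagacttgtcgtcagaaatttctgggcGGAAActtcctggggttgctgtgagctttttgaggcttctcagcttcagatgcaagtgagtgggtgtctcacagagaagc
Tnfsf11 (chr14:78307994-78308293, minus strand): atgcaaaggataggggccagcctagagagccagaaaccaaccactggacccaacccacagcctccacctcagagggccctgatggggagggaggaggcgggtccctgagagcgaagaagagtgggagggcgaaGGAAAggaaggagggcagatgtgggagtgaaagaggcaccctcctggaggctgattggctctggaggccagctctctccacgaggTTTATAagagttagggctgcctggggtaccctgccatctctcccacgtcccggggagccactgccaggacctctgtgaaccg

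The NFAT core was found in 8 of the 8 promoters, and it is common, being in 61.3% of 32851 promoters of the same length. A TATA box match lay in the promoters of Tnf, 29 bases upstream of the start, Tnfsf11, 32 bases upstream, and Lta, 167 bases upstream, against 13.6% of all promoters. The NF-kB match, present in 4.51% of all promoters, was found for Ltb alone among the 8, at 87 bases upstream. Tnfsf14 alone held an AP-1 match (7.81% of all promoters). These matches describe the sequence and do not show binding.

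Differences below are IL-10+ minus IL-10- on the log2 scale of the deposited normalized signal. A probe set is said to be higher or lower in IL-10+ cells where the adjusted p of limma, corrected over all 45037 probe sets that are not array controls, was under 0.05. In bulk samples, fewer cells that make a transcript and less transcript per cell cannot be told apart. By this rule, of the 15 ligand probe sets 5 passed as higher and 5 as lower, against 13.6% higher and 16.2% lower (29.8% in all) among all probe sets, that is 6133 higher and 7307 lower (4668 and 10076 when each array was centred on its median). Without IL-10+ replicate 1 or 2, the count of higher ligand probe sets was 2 in place of 5. The probe sets that were higher belong to 3 genes, Fasl, Tnfsf11 and Tnfsf8, and those that were lower to 4 genes, Lta, Ltb, Tnfsf10 and Tnfsf14. Tnf, Tnfsf4 and Cd40lg had none that passed. The differences were modest. The largest was 0.73 in size, and 0 ligand probe sets met the limits of the study's own selection, a change of 2-fold or more with adjusted p below 0.001, which 1.72% (higher) and 0.575% (lower) of all probe sets met. At an unadjusted p under 0.05 from limma, 0 also reached 2-fold. This rests on reading the deposited values as log2. Read as natural logs, Lta and Ltb would differ by -1.05 and -1.04 in log2 units at the same adjusted p of 0.000164, and both would meet those limits. The median size of the difference was 0.30 over the ligands and 0.12 over all probe sets, and the medians with sign were -0.02 and 0.01. Both IL-10+ arrays lay above both IL-10- arrays for 6 ligand probe sets and below them for 7, against 32.5% and 30.5% (63% together) of all probe sets.

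**Figure D1:**
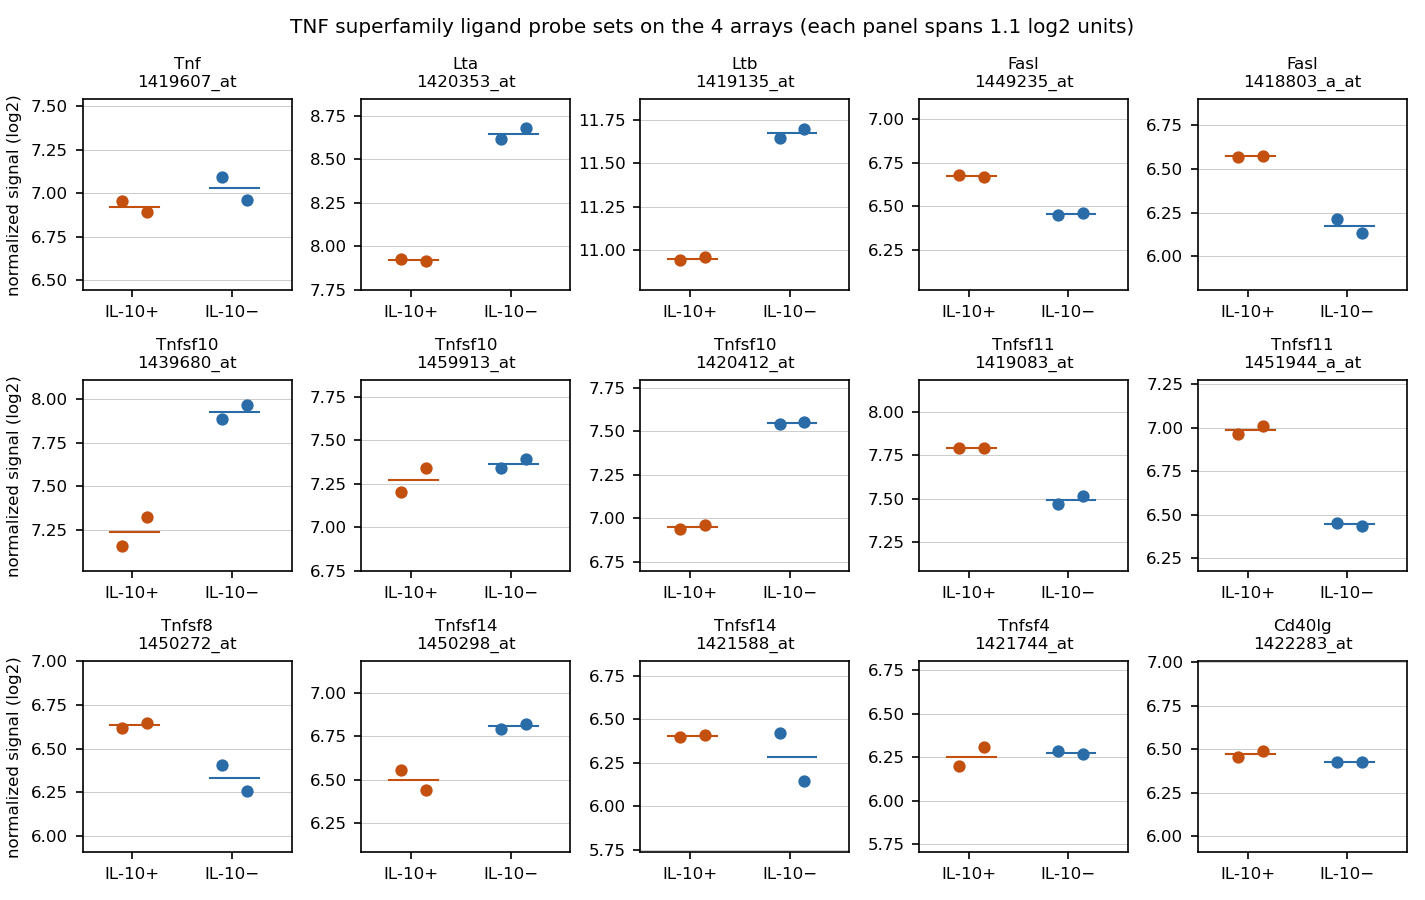
Normalized signal (log2, vertical axis) of the 15 ligand probe sets on each array, IL-10+ samples (orange) left and IL-10- samples (blue) right, with a line at each group's mean (n = 2). Each panel has its own range of the same height, and the groups lie apart most clearly for Lta, Ltb, Tnfsf10 (1439680_at and 1420412_at) and Tnfsf11 (1451944_a_at).

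Il10, the cytokine of the sort, stood at 12.02 and 12.00 on the IL-10+ arrays, against 10.41 and 10.37 on the IL-10- arrays, the direction of the sort. Of 6 markers of CD4+ Tregs, read by the probe set of each gene with the highest mean over the arrays (the brightest), Foxp3 was at 10.86 and 10.79 in IL-10+ and at 11.54 and 11.55 in IL-10- cells and was lower (-0.72), and Ikzf2 (-0.55) was lower too. Cd4 (0.51) and Ctla4 (0.87) were higher, and Cd3e (0.12) and Il2ra (-0.22) did not pass. For Ikzf2, the next probe set in brightness was lower too (-0.51). Its dimmest one was higher (0.55), at 6.91 and 7.01 in IL-10+ against 6.45 and 6.36 in IL-10- samples. The dimmer probe set of Il2ra was higher (0.38), and that of Cd4 was higher by 3.07. For these genes the size or direction thus depends on the probe set. Among markers of other cells, counted the same way, 7 of 8 for B cells and plasma cells and 2 of 4 for CD8 T-cells and NK cells were lower and 0 of either list were higher (also 0 at an unadjusted p under 0.05 from limma), while 3 of 10 for myeloid and dendritic cells and 1 of 5 for lymph node stroma and vessels were higher. Over all genes, the brightest probe set was higher for 8.37% and lower for 22.9%.

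The lymphotoxin genes Lta and Ltb had the largest differences of the family, and both were lower in IL-10+ cells. Lta encodes lymphotoxin alpha, which forms a secreted trimer that binds the TNF receptors. Its probe set 1420353_at read 7.92 and 7.91 on the IL-10+ arrays, against 8.61 and 8.68 on the IL-10- arrays. The groups lay apart by 0.69, and the replicates of each group lay close together. The difference was -0.73 (standard error 0.06, adjusted p = 0.000164), 1.66-fold lower in IL-10+ cells. Ltb encodes lymphotoxin beta, the chain that anchors lymphotoxin alpha in the membrane as a mixed trimer and directs it to the lymphotoxin beta receptor. It read 10.94 and 10.96 in IL-10+ samples, against 11.65 and 11.70 in IL-10- samples (1419135_at). Again both IL-10+ arrays were below both IL-10- arrays, by 0.69, and the difference was -0.72 (standard error 0.06, adjusted p = 0.000164). Both calls held in 11 of 11 other ways of processing at the same threshold, counting the reading as natural logs, which could change no call. Apart from that reading, the differences ranged from -0.80 to -0.69 for Lta and from -0.80 to -0.57 for Ltb.

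Ltb and Lta are also made by B cells. The summed signal of the 8 markers of B cells and plasma cells was 9.65 and 9.64 (log2) in IL-10+ samples, against 11.50 and 11.45 in IL-10- samples. The largest differences in that list were those of Jchain (7.66 and 7.73 in IL-10+ samples against 10.43 and 10.46 in IL-10- samples, -2.75) and Mzb1 (6.49 and 6.38 against 9.29 and 9.09, -2.75), both known from plasma cells. Markers of B cells differed less. Ms4a1, the B cell surface protein CD20, read 5.82 and 5.67 in IL-10+ against 6.97 and 6.95 in IL-10- samples (-1.22), and Cd79b, a chain of the B cell receptor, 7.03 and 7.17 against 8.20 and 8.11 (-1.06). Pax5, the factor that defines B cells, read 6.18 and 6.12 in IL-10+ samples, against 6.21 and 6.15 in IL-10- samples. Its difference of -0.03 did not pass. These values, and those of Ms4a1 in IL-10+ samples, lay below the median of all probe sets (6.37), where variance stabilization compresses differences. The part of these cells in the lymphotoxin values was not tested.

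Tnf, which encodes the founding cytokine of the family, lies between Ltb and Lta on chromosome 17, and its difference did not pass. It read 6.96 and 6.89 in IL-10+ samples, against 7.09 and 6.96 in IL-10- samples (1419607_at). The groups nearly touched, with a gap smaller than the spread within either of them. The difference was -0.11 (adjusted p = 0.343), with a 95% interval of -0.27 to 0.06, beside -0.88 to -0.58 for Lta and -0.87 to -0.57 for Ltb. The difference between these genes was not tested. Beyond the 3 ligands, Lst1, next to Ltb, was lower by 0.52 (adjusted p = 0.000801), and Nfkbil1, next to Lta, was lower by 0.31 (adjusted p = 0.012). The next genes outward, Aif1 beyond Lst1 (-0.00, adjusted p = 0.983) and Atp6v1g2 beyond Nfkbil1 (-0.08, adjusted p = 0.458), did not pass. Of these 7 genes in a row 4 were lower, against 22.9% of all genes, but Lta and Ltb are among the 4. The stretch is described because it holds these ligands, so the count is not a test of the region. Of the receptors of TNF, Tnfrsf1a, the widely expressed death domain receptor, differed by -0.10 (adjusted p = 0.283). Tnfrsf1b, the receptor TNFR2 that is known to support Tregs, gave opposite readings. Its brighter probe set was lower (10.13 and 10.25 in IL-10+ against 10.61 and 10.93 in IL-10- samples, -0.58, adjusted p = 0.00544) and its dimmer one higher (8.82 and 8.80 against 7.51 and 6.91, 1.60).

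**Figure D2:**
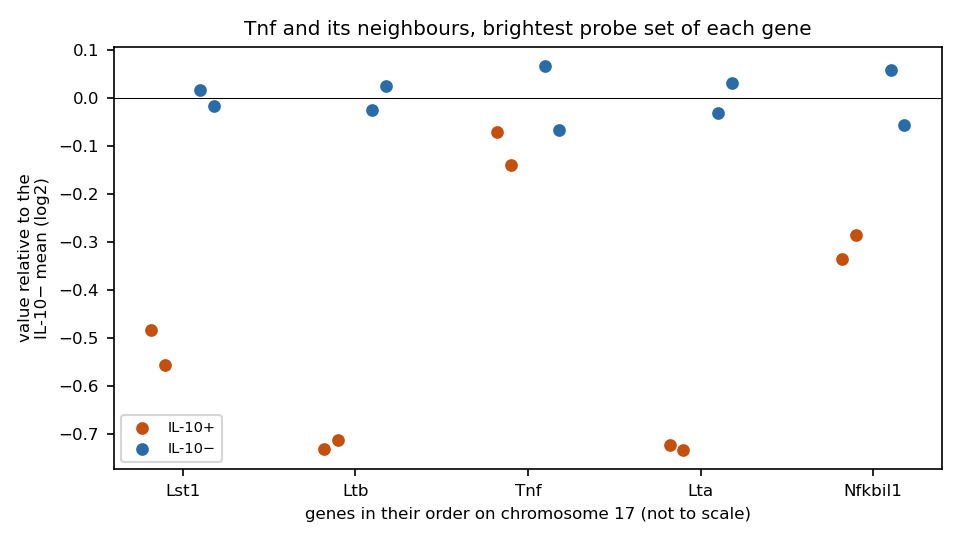
Values on each array as distance in log2 (vertical axis) from the IL-10- mean, for Tnf and its neighbours in their order on chromosome 17, IL-10+ arrays in orange and IL-10- arrays in blue. The differences are -0.72 for Ltb and -0.73 for Lta, while the IL-10+ arrays of Tnf (-0.11) lie next to the IL-10- arrays.

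The death ligands moved in opposite directions. Tnfsf10, which encodes TRAIL, a ligand that can kill cells through death receptors, was lower in IL-10+ cells in 2 of 3 probe sets. Probe set 1439680_at read 7.15 and 7.33 on the IL-10+ arrays, against 7.89 and 7.97 on the IL-10- arrays, a difference of -0.69 (standard error 0.08, adjusted p = 0.000536). Probe set 1420412_at read 6.94 and 6.96 against 7.54 and 7.55, a difference of -0.59 (standard error 0.06, adjusted p = 0.000345). In both the groups were over 0.5 apart. The third, 1459913_at, read 7.20 and 7.34 in IL-10+ samples, against 7.34 and 7.39 in IL-10- samples. There the groups touched, and the difference of -0.09 did not pass (95% interval -0.26 to 0.07). With the 3 probe sets averaged, Tnfsf10 differed by -0.46 (adjusted p = 0.00104). Of the receptors, Tnfrsf10b, the mouse TRAIL death receptor, read 6.12 and 5.99 in IL-10+ against 6.01 and 5.97 in IL-10- samples and did not pass (0.06). The decoy receptors of mouse TRAIL were higher, Tnfrsf23 with 7.19 and 7.08 against 6.56 and 6.31 (0.70, adjusted p = 0.00112) and Tnfrsf22 by 0.33 in its brightest probe set (adjusted p = 0.0102), by 0.45 in another and by -0.15, which did not pass, in the remaining one.

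Fasl, the ligand of Fas and a classical trigger of activation-induced cell death, was higher in both probe sets. Probe set 1418803_a_at read 6.57 and 6.57 in IL-10+ samples, against 6.21 and 6.13 in IL-10- samples, which left the groups 0.36 apart. Its difference was 0.40 (standard error 0.06, adjusted p = 0.00267), 1.32-fold. The brighter one, 1449235_at, read 6.68 and 6.67 against 6.45 and 6.46. Its difference of 0.22 passed narrowly (adjusted p = 0.0331). It did not pass after quantile normalization (adjusted p = 0.132) or median centring (0.155), nor without IL-10+ replicate 1 (difference 0.21) or 2 (difference 0.22). Fas itself, the receptor, was lower in IL-10+ cells, with 7.51 and 7.52 against 7.97 and 7.81 (-0.37, adjusted p = 0.00655). CD8 T-cells and NK cells make Fasl as well as Tnfsf10. The summed signal of their 4 markers was 8.80 and 8.75 in IL-10+ samples, against 9.09 and 9.03 in IL-10- samples, and 2 of them were lower, Eomes (-0.62, adjusted p = 0.00056) and Cd8b1 (-0.24, adjusted p = 0.0271). The brightest probe set of Cd8a (-0.20) and Ncr1, which defines NK cells (5.89 and 5.77 against 5.89 and 5.96), did not pass. Of the 4 dimmer probe sets of Cd8a, 3 were lower. The part of these cells in the values of Fasl and Tnfsf10 was not tested.

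Tnfsf11 and Tnfsf8 were the other ligand genes that were higher in IL-10+ cells. Tnfsf11 encodes RANKL, best known for driving the formation of osteoclasts and also needed for lymph nodes to develop. Probe set 1451944_a_at read 6.96 and 7.01 in IL-10+ samples, against 6.45 and 6.44 in IL-10- samples. This was the largest rise of the family, 0.54 (standard error 0.06, adjusted p = 0.00056) or 1.46-fold. The rise passed in 12 of 12 alternatives at the same threshold, counting the average of both probe sets. The reading as natural logs, which could change no call, is counted too. The brighter probe set, 1419083_at, read 7.79 and 7.79 against 7.47 and 7.52, with the groups 0.27 apart. Its difference was 0.30 (adjusted p = 0.00941). Leaving out IL-10+ replicate 1 gave 0.30 and leaving out replicate 2 gave 0.29, and neither passed. Of the partners of RANKL, the receptor Tnfrsf11a (0.10) and the soluble decoy receptor Tnfrsf11b (0.11) did not pass. Lymph node stroma also makes RANKL, and the summed signal of its 5 markers was 9.42 and 9.44 in IL-10+ samples, against 9.04 and 9.03 in IL-10- samples. The single marker of that list that passed was Pecam1 (8.60 and 8.62 in IL-10+ against 7.95 and 7.89 in IL-10- samples, 0.69). It is the brightest of the 5 and weighs most in the sum, so the sum is not an even reading of the list. The collagen genes Col1a1 and Col1a2 differed by 0.13 and 0.08 and did not pass. The part of stroma in the values of Tnfsf11 was not tested.

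Tnfsf8 encodes CD30L, the ligand of CD30. It read 6.62 and 6.65 in IL-10+ samples, against 6.41 and 6.26 in IL-10- samples (1450272_at), without overlap. The difference was 0.30 (standard error 0.07, adjusted p = 0.0172), 1.23-fold, and it did not pass without IL-10+ replicate 1 (adjusted p = 0.0737) or 2 (0.105), in a range of 0.00167 to 0.105 over all alternatives. CD30 itself, encoded by Tnfrsf8, read 9.27 and 9.35 in IL-10+ samples, against 7.13 and 6.77 in IL-10- samples. Tnfsf8 and Tnfrsf8 were the only pair among those examined in which the ligand and the receptor were both higher by their brightest probe sets.

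Tnfsf14 encodes LIGHT, which binds the herpesvirus entry mediator and the lymphotoxin beta receptor. Its 2 probe sets did not move together. The brighter one, 1450298_at, read 6.56 and 6.44 in IL-10+ samples, against 6.79 and 6.82 in IL-10- samples, and was lower (-0.31, standard error 0.07, adjusted p = 0.0119). It did not pass without IL-10+ replicate 2, where the difference was -0.25. The other, 1421588_at, read 6.39 and 6.41 against 6.42 and 6.15, so that the groups overlapped through IL-10- replicate 3. Its difference of 0.12 did not pass (adjusted p = 0.427), but without that replicate it was 0.26 and passed (adjusted p = 0.0189, in a range of 0.0189 to 0.874), and without IL-10- replicate 4 it was -0.02. With both probe sets averaged, Tnfsf14 differed by -0.10 (adjusted p = 0.288). Its receptors Tnfrsf14 (0.09) and Ltbr (0.12) did not pass.

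The costimulatory ligands Tnfsf4 and Cd40lg gave the smallest differences. Tnfsf4 encodes OX40L, the ligand of OX40. It read 6.20 and 6.31 in IL-10+ samples, against 6.28 and 6.27 in IL-10- samples (1421744_at), and the groups overlapped. The difference was -0.02 (95% interval -0.18 to 0.14), and its sign turned without IL-10+ replicate 1. OX40, encoded by Tnfrsf4, read 13.46 and 13.41 in IL-10+ samples, against 13.33 and 13.41 in IL-10- samples, and did not pass either (0.06). Cd40lg encodes CD40L, through which activated helper T-cells stimulate B cells and dendritic cells. Its values were 6.46 and 6.49 in IL-10+ samples, against 6.42 and 6.43 in IL-10- samples (1422283_at). The difference was 0.05 (95% interval -0.10 to 0.19) and turned to -0.03 after quantile normalization and after median centring. Cd40, the receptor of B cells and antigen-presenting cells, was lower in 3 of 3 probe sets (-0.36, -0.26 and -0.76), alongside the markers of B cells described above. Both read near the median of all probe sets (6.37), a level at which variance stabilization compresses differences, and so did Fasl and Tnfsf8, whose differences passed. The intervals above give the sizes of difference that these 4 arrays leave possible for Tnfsf4 and Cd40lg.

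**Figure D3:**
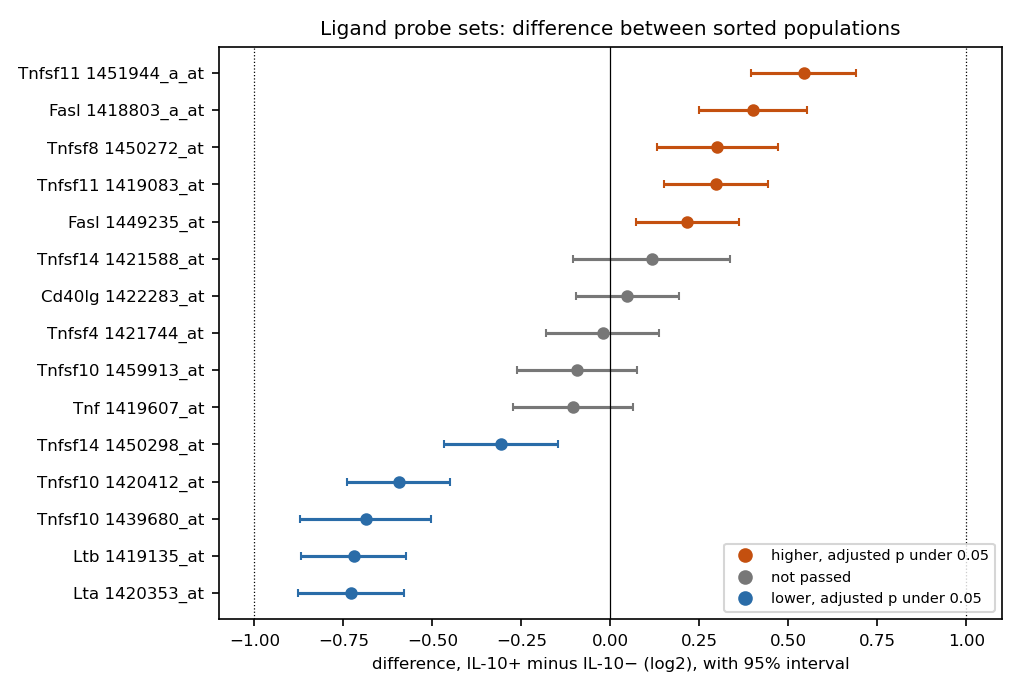
Log2 difference, IL-10+ minus IL-10- (horizontal axis), of each ligand probe set with its 95% interval from limma, ordered by size, with dotted lines at 2-fold. The probe sets run from -0.73 (Lta) to 0.54 (Tnfsf11), and no interval reaches the 2-fold lines.

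Where the probe sets of a ligand gene lie along its transcript is not given in the sources used here. In 4 transcripts added as controls for labelling, the median difference, IL-10+ minus IL-10-, was 1.22 at the 5' end (0.68 to 2.16). It was 0.82 for the middle (0.31 to 1.16) and 0.04 for the 3' end (-0.22 to 0.17). The 5 ligand probe sets that were higher point the same way as the shift at the 5' end, and the 5 lower ones the other way. The dimmer probe sets of Tnfrsf1b, Cd4, Cflar and Adam17 that were higher also point the way of that shift. Fasl, Tnfsf10 and Tnfsf11 alone had more than 1 probe set that passed, and within each gene these pointed the same way. In the other ligand genes 1 or 0 probe sets passed, so opposite calls could not be seen. Probe sets that did not pass are left out here, namely -0.09 for Tnfsf10 and 0.12 for Tnfsf14, whose other probe set gave -0.31. Because the places of the probe sets are not given, this agreement is no check of position. Sizes differed, with 0.40 and 0.22 for Fasl, 0.54 and 0.30 for Tnfsf11, and -0.69 and -0.59 for Tnfsf10. The part of the position along the transcript in the values of the ligands and of the other genes was not tested.

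Set beside their receptors, the ligands showed no common direction. Of 13 receptor genes, 3 were higher by their brightest probe sets (Tnfrsf8, Tnfrsf23 and Tnfrsf22), 3 were lower (Tnfrsf1b, Fas and Cd40) and 7 did not pass, against 8.37% higher and 22.9% lower over all genes. The median difference was 0.09 over the receptors and -0.01 over all genes. Tnfsf10 was lower and its decoy receptors higher, and Fasl was higher while Fas was lower. Both members of the pair of Tnfsf4 and Tnfrsf4 did not pass. Of 8 further ligand genes of the family that are not among the 10, 4 were measured alone by a probe set, and 0 of them passed in either direction, also at an unadjusted p under 0.05 from limma: Tnfsf9, the ligand of 4-1BB (0.06), Tnfsf13b, the B cell factor BAFF (-0.14), Cd70, the ligand of CD27 (-0.05), and Eda (0.08).

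**Figure D4:**
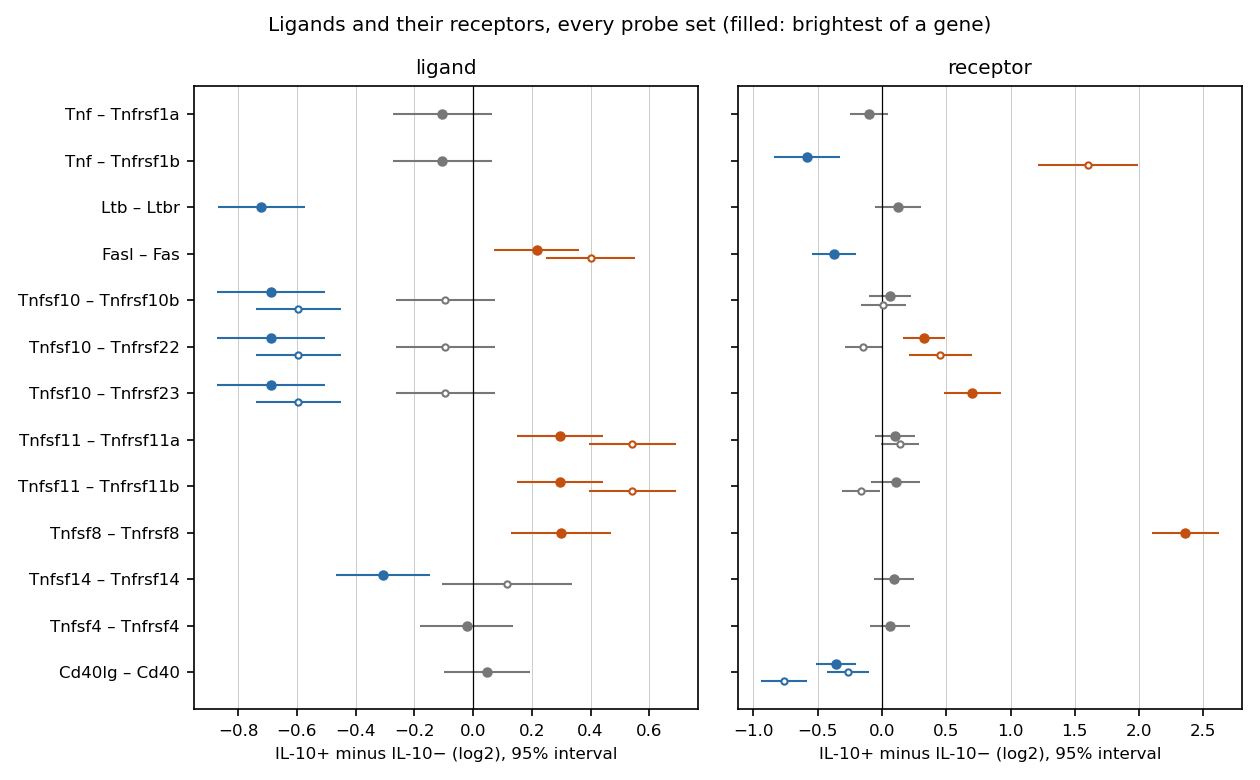
Differences (log2, horizontal axes of different range) of ligands (left) and their receptors (right) with 95% intervals, for every probe set, with the brightest of a gene filled. Orange marks probe sets that were higher in IL-10+ cells, blue lower and grey not passed; Tnfrsf8 at 2.36 stands out among the receptors.

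Downstream of these receptors, the brightest probe sets of 12 adaptor and kinase genes were lower for 5 and higher for 0 (1 at an unadjusted p under 0.05 from limma), with a median of -0.20, against 22.9% lower and 8.37% higher over all genes. The lower ones were Traf6 (-0.55) and Traf5 (-0.33), adaptors that lead to NF-kB, Tradd (-0.43) and Fadd (-0.26), adaptors of death domain receptors, and Tnfaip3 (-0.32), which encodes the NF-kB inhibitor A20. Over all 28 probe sets of these genes, 6 were higher and 6 lower, against 13.6% higher and 16.2% lower among all probe sets. The largest differences were in dimmer probe sets that were higher, of Cflar (1.46), which encodes the caspase inhibitor c-FLIP, and Traf1 (1.13), whose brightest probe sets did not pass. Dimmer probe sets of Traf6 (0.41 and 0.48) and Tnfaip3 (0.85) were higher, against the direction of the brightest ones, so the direction of both genes depends on the probe set read.

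**Figure D5:**
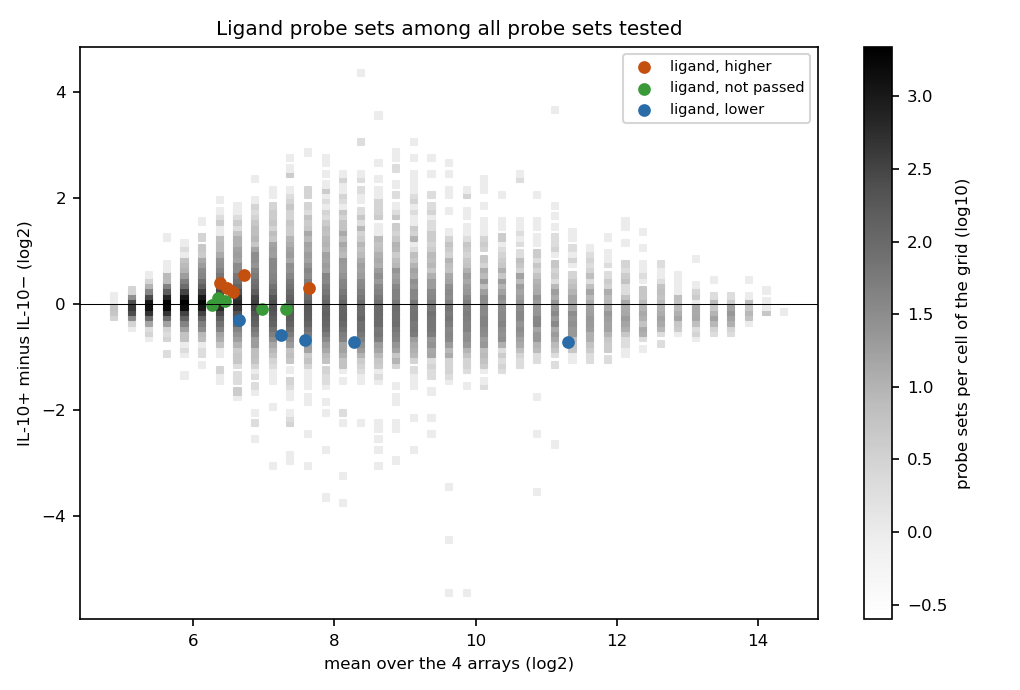
Log2 difference, IL-10+ minus IL-10- (vertical axis), against the mean over the 4 arrays (log2, horizontal axis), with all 45037 probe sets as a grid shaded by their number and the 15 ligand probe sets as points. Lta and Ltb are the lowest of the ligand points, at -0.73 and -0.72, and Tnfsf11 (1451944_a_at) is the highest, at 0.54.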

How the data were processed

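RNA of 2 IL-10+ and 2 IL-10- samples was read on Affymetrix mouse genome arrays, 1 per sample. The authors normalized signal intensities by variance stabilization in Bioconductor and deposited 1 log2 value per probe set; how probes were summarised is not given in the sources used here. The base was read as log2, since as natural logs the brightest values would exceed a 16-bit scanner's range, but the study plots fold changes as natural logs and the base of the table is stated nowhere in the sources used here. Variance stabilization compresses differences of dim probe sets.

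The groups were compared with limma 3.58.1 under R 4.3.3 (lmFit and eBayes, two-sided p-values, Benjamini-Hochberg adjustment) over 45037 probe sets, leaving 64 control probe sets out. Residual degrees of freedom were 2 per probe set and the prior contributed 5.44. The fit was first tested on simulated data. An exact test of 1 gene cannot go below p = 0.333 with 2 arrays against 2. Genes were named from the platform annotation, with 34945 probe sets having 1 symbol and 932 having several, which were not named. The table names no genome build, so coordinates are those of the RefSeq promoters only.

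Members and lists were chosen with earlier results of these data known. By rule, every member probe set was named, and up to 5 passing genes of each list with the receptors of the members. Tried as alternatives were normalization by quantiles, centring on medians, leaving out dim or cross-matching probe sets, a trend or robust prior, natural logs, the study's limits, leaving out each array and averaging the probe sets of a gene. The number of arrays limits the precision. Python 3.11.15 with matplotlib 3.10.9 drew the figures.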

Additional observations from a re-analysis of the deposited data

How the results depend on the processing

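The 2 counts of ligand probe sets changed most with the study's limits of 2-fold and an adjusted p under 0.001. With the values read as log2, these left 0 higher and 0 lower ligand probe sets (775 and 259 over all probe sets). Read as natural logs, Lta and Ltb would meet the limits, as given above. Leaving out 1 array at a time gave 2 to 6 higher and 4 to 5 lower ligand probe sets, and 3994 to 7427 higher and 4676 to 8192 lower probe sets in all; the group left with 1 array is then assumed to vary like the other. Without IL-10+ replicate 1 or 2, 2 ligand probe sets were higher. Without IL-10+ replicate 1, 4676 of all probe sets were lower, and without IL-10+ replicate 2, 3994 were higher; the cause was not tested. Under quantile normalization, median centring, the filter on dim probe sets, both other priors, natural logs and without cross-matching probe sets, ligand counts stayed at 4 or 5 higher and 5 lower. Signs turned for differences that did not pass: Cd40lg to -0.025 after quantile normalization and -0.028 after median centring, Tnfsf4, which ranged over -0.077 to 0.033 with 1 array left out, to its highest value without IL-10+ replicate 1, and the dimmer probe set of Tnfsf14 to -0.022 without IL-10- replicate 4 (range -0.022 to 0.26 with 1 array left out) and to -0.10 with both probe sets of the gene averaged. Of 186 recomputed ligand differences, 159 kept their sign and their side of the threshold, 20 no longer passed, 2 newly passed and 5 changed sign. This tally does not measure robustness. At the threshold of adjusted p under 0.05, natural logs rescale every value and could change no call. The study's limits could only remove calls. The average of a gene's probe sets is counted under each of them. Of the lists, the adaptors and kinases had 2 genes higher without IL-10- replicate 4 and with quantiles, and 2 lower without IL-10+ replicate 2. No paired analysis was possible because the groups share no replicate numbers.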

Other observations

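Genes that act before the ligands reach the surface also differed between the sorted cells. Among 9 genes for ligand shedding and for the decay of cytokine mRNA, 3 were higher by their brightest probe sets and 3 lower (8.37% and 22.9% over all genes). Zfp36l1 (0.83), Zfp36l2 (0.24) and Sppl2a (0.23, passing narrowly with an adjusted p of 0.0489 from limma) were higher. The first pair encodes proteins that bind AU-rich elements in mRNA and promote its decay, and Sppl2a an intramembrane protease known to cut TNF and Fas ligand. Zfp36 (-0.54), which encodes tristetraprolin, known for the decay of Tnf mRNA, Rc3h1 (-0.47), which encodes Roquin-1, and Zc3h12a (-0.24), which encodes Regnase-1, were lower. The dimmer probe set of Zc3h12a was higher by 0.31, so its direction depends on the probe set. For Sppl2a and Zfp36l1 the size does. Dimmer probe sets of Sppl2a were higher by 0.22 and 2.72, and that of Zfp36l1 by 1.39. Zfp36 read 9.20 and 9.20 in IL-10+ samples, against 9.69 and 9.78 in IL-10- samples. The sheddases Adam17 (-0.08) and Adam10 (0.16) did not pass by their brightest probe sets, while dimmer ones were higher by 0.80 and 1.79 for Adam17 and by 1.65 and 1.09 for Adam10. After median centring, and with either IL-10+ array left out, 1 gene of the list was higher.

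Of 9 measured genes for transcription factors known to act on ligand genes, 3 were higher and 4 lower (8.37% and 22.9% over all genes). Nfatc1 (0.89), Egr3 (0.50) and Rel (0.44) were higher, and Nfatc2 (-0.52), Egr2 (-0.48), Rela (-0.34) and Jund (-0.21) were lower. The NFAT genes, whose products are activated by calcium signals of the antigen receptor, thus differed in opposite directions by their brightest probe sets, as did the EGR genes, which are known to act on Fasl. Dimmer probe sets of Nfatc2 were higher, by 0.84 and 0.41, so its direction depends on the probe set. Those of Nfatc1 were higher by 1.43 and 0.24, or did not pass (0.18 and -0.07). The dimmer probe sets of Egr3 (0.02) and Jund (0.08) did not pass, and that of Egr2 was lower too (-0.59). The higher reading of Egr3 thus rests on its brightest probe set alone. Without IL-10+ replicate 1, 1 gene of the list was lower.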
